A study of Homo sapiens with 6 samples.

Results

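The 9 genes described here are established targets of the transcription factor p53, taken as the rows of the deposited table named MDM2, CDKN1A, ZMAT3, BAX, BBC3, TNFRSF10B, TP53I3, SESN1 and GDF15. All 9 were found, each once, among the 20024 genes listed. The study sequenced RNA that came down with PTBP1, which binds RNA, in AC16 cells, which the labels call heart cells of cardiomyocyte type. The method, RNA immunoprecipitation sequencing (RIP-seq), reads out the RNA that comes down with a protein when an antibody captures it. Knockout cells lacking DCRT, a long noncoding RNA, gave 3 libraries (DCRT-KO) and wild-type cells gave another 3 (WT), all with the PTBP1 antibody and no treatment named in the labels. The series title places DCRT and PTBP1 in dilated cardiomyopathy, and the comparison addressed here is which p53 target transcripts differed in PTBP1 RIP without DCRT.

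p53 is held low in unstressed cells by MDM2, a ubiquitin ligase that marks it for degradation and is itself made from a p53 target gene, which closes a feedback loop. After DNA damage or other stress p53 accumulates and turns on genes that halt the cell cycle, start apoptosis, limit oxidative damage or send signals to other cells. PTBP1 binds CU-rich stretches of RNA and acts on splicing, stability and translation. The established AC16 line was made by fusing ventricular cardiomyocytes with fibroblasts that carried the SV40 large T antigen, a viral protein that binds p53 and blocks its activity. The labels' growth protocol instead describes cells of a commercial supplier, and the presence of large T was not checked here. The labels also do not say whether the knockout was a single clone, or whether replicates came from separate cultures. The spread behind each p-value is therefore that of these libraries and may be technical.

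Whole reads worked back from the deposited FPKM values (fragments scaled to gene length and to the library total) totalled 528371, 373354 and 1380722 in DCRT-KO libraries 1, 2 and 3, against 1798841 to 2589080 in the WT libraries, called a, b and c in column order. The deepest DCRT-KO library was shallower than the shallowest WT library, so depth and genotype cannot be told apart. DCRT has no row of its own here, and the knockout could not be checked on it. Of 12 cardiomyocyte markers, 7 had no read in any library, among them the troponins TNNT2 and TNNI3 and the cardiac myosins MYH6 and MYH7. The cardiac transcription factor GATA4 averaged 9.36 ± 3.43 FPKM in DCRT-KO and 6.32 ± 0.641 in WT (SD, n = 3 each), and the giant sarcomere protein titin, TTN, 2.41 ± 0.907 and 4.36 ± 1.04. The summed markers came to 8.41 to 20.3 FPKM in DCRT-KO and 10.4 to 12.002 in WT, and their part in the results below was not tested. Most defining cardiomyocyte markers were thus at 0 in this RNA.

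Because the RNA was selected by PTBP1, the stretches it could bind are shown for the 5 members that the results turn on. Each is the longest unbroken run of C and T in 1 GENCODE 29 transcript of the gene (the highest-ranked principal isoform, then the longest), written 5′ to 3′ as DNA, with the PTBP1-type motif TCTT in capitals where it occurs.
CDKN1A: ttctccttttcctctctccc
ZMAT3: cctTCTTccctccTCTTttttcccccct
BAX: cctcctctcct
BBC3: cttccccccctcctcct
SESN1: tTCTTTCTTt
The runs lie in GRCh38 at chr6:36686071-36686090 on the plus strand (CDKN1A, 3′ UTR), chr3:179024136-179024163 on the minus strand (ZMAT3, 3′ UTR), chr19:48961537-48961547 on the plus strand (BAX, coding), chr19:47221360-47221376 on the minus strand (BBC3, 3′ UTR) and chr6:108994592-108994601 on the minus strand (SESN1, coding). Over 11423 of the 11445 genes tested below, the median longest run was 14 bases (quartiles 12 and 18) and TCTT occurred 4.98 times per kilobase (quartiles 3.47 and 6.43), counted on the transcript strand with overlaps.

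The members spanned much of that range. ZMAT3 had a run of 28 bases, longer than in 93.3% of these genes, and 8.08 TCTT per kilobase, more than in 92.6%. CDKN1A had a run of 20 bases and 5.73 TCTT per kilobase. BBC3, whose transcript is 69.7% G and C, had 0.544 TCTT per kilobase, and only 0.735% of genes had fewer. BAX, TNFRSF10B, SESN1 and GDF15 had runs of 11, 11, 10 and 8 bases, shorter than the first quartile. The stretches are a description of the transcripts, and binding at them was not measured.

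None of the 8 members that could be tested passed. Values were above WT in 3 members and below in 5, where 47.2% of all tested genes were above and 52.8% below. The test was limma on log2(FPKM + 1), over the genes whose mean across the 6 libraries reached 1 FPKM. In DCRT-KO 269 genes rose and 137 fell at a Benjamini-Hochberg adjusted p below 0.05, which is 2.35% and 1.20% of the 11445 tested and 3.55% together. That split was 220 and 232 with quantile normalization, and 186 and 328 after rescaling without mitochondrially encoded genes. With 1 library left out it lay anywhere between 0 and 724 higher and 0 and 836 lower, and without WT library c no gene passed. At an unadjusted limma p below 0.05 there were 3 members, BAX, BBC3 and SESN1, where 23.6% of all tested genes passed. The voom test on whole reads also called 0 members, against 9.24% of tested genes. GDF15, with a mean of 0.594 FPKM, was below the filter. SESN1, with a mean of 1.06, passed it only through its WT values. It is still counted in the direction split, the unadjusted passes and the median of the 8 tested members. The median log2 difference (DCRT-KO minus WT, on the log2(FPKM + 1) scale) was -0.21 over the 8 tested members and -0.04 over all tested genes.

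**Figure D1:**
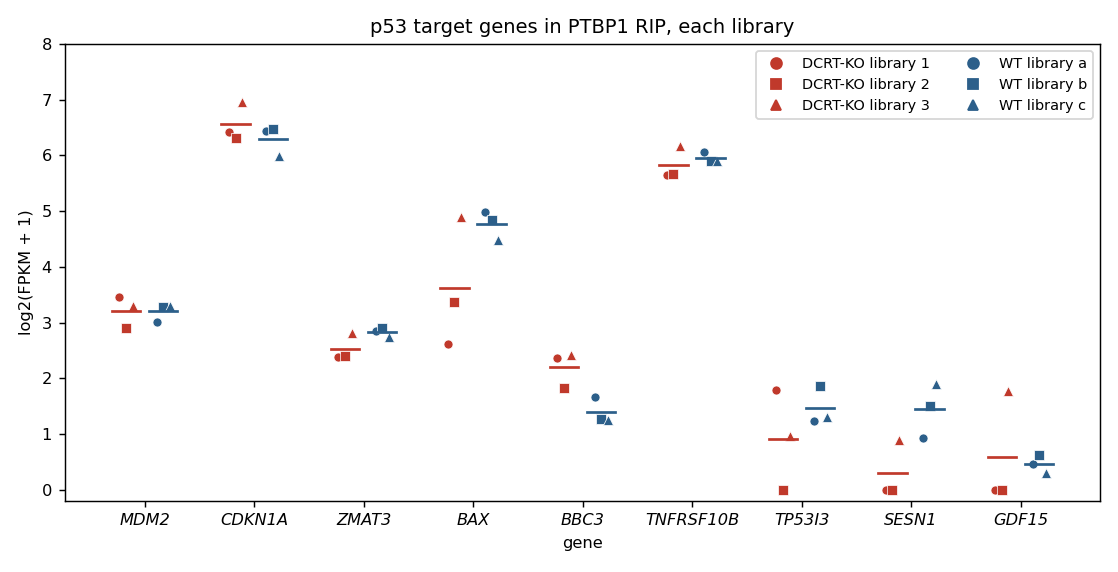
Level of each of the 9 p53 target genes on the log2(FPKM + 1) axis, with 1 point per library, DCRT-KO in red left of WT in blue, and a bar at the mean of the log values. BBC3 lies wholly higher and SESN1 wholly lower in DCRT-KO; BAX is low in DCRT-KO libraries 1 and 2 and at the WT level in library 3.

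The feedback regulator did not differ beyond its error. MDM2 (ENSG00000135679, chromosome 12, 68808177 to 68850686, plus strand, in the positions of the deposited file) had 9.97, 6.45 and 8.78 FPKM in DCRT-KO libraries 1, 2 and 3, against 7.09, 8.75 and 8.87 FPKM in libraries a, b and c of WT. The groups overlapped fully, with DCRT-KO library 1 the highest and library 2 the lowest of all 6. Its log2 difference was 0.01 ± 0.22 SE (95% interval -0.49 to 0.51, limma adjusted p = 0.978). MDM2 rests on 70, 32 and 161 reads in DCRT-KO and 244, 209 and 243 in WT.

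Among the genes of cell cycle arrest, neither member passed. CDKN1A (ENSG00000124762, chromosome 6, 36676460 to 36687339, plus strand) encodes p21, the inhibitor of cyclin-dependent kinases that carries out most of the arrest. It had 84.4, 78.2 and 124 FPKM in the DCRT-KO libraries and 86.0, 87.5 and 62.3 in WT, the highest level of the 9 genes. DCRT-KO library 3 was the highest of all and WT library c the lowest, while DCRT-KO libraries 1 and 2 lay inside the WT range. The log2 difference was 0.26 ± 0.22 SE (95% interval -0.22 to 0.75, adjusted p = 0.482), so a rise of up to 0.75 is inside the error. ZMAT3 (ENSG00000172667, chromosome 3, 178960121 to 179072215, minus strand), a zinc finger protein that binds RNA and suppresses tumours downstream of p53 in mice, had 4.19, 4.27 and 6.03 FPKM in DCRT-KO and 6.22, 6.45 and 5.71 in WT. DCRT-KO libraries 1 and 2 were below every WT library, and library 3 was between WT libraries c and a. The log2 difference was -0.30 ± 0.23 SE (95% interval -0.81 to 0.21, adjusted p = 0.44).

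The 4 cell death genes went in different directions. BAX (ENSG00000087088, chromosome 19, 48954815 to 48961798, plus strand), which forms the pores that open the outer mitochondrial membrane, had 5.12, 9.32 and 28.6 FPKM in DCRT-KO libraries 1, 2 and 3, against 30.6, 27.7 and 21.4 in WT. Libraries 1 and 2 of DCRT-KO were far below every WT library, and library 3 was above 2 of the 3, so the groups overlapped. The log2 difference was -1.15 ± 0.47 SE (95% interval -2.21 to -0.08, adjusted p = 0.183). Without DCRT-KO library 3 it was -1.78 with an adjusted p of 0.00987, in a fit that called 13.7% of 11420 tested genes, with 7.32% lower. Without both DCRT-KO libraries 1 and 2 it was 0.12.

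BBC3 (ENSG00000105327, chromosome 19, 47220822 to 47232766, minus strand) encodes PUMA, a BH3-only protein that frees and activates BAX. It had 4.17, 2.53 and 4.33 FPKM in DCRT-KO, against 2.19, 1.40 and 1.37 in WT. All 3 DCRT-KO values were above all WT values, as was so for 15.5% of tested genes. The ratio of mean FPKM was 2.22 and the log2 difference 0.81 ± 0.29 SE (95% interval 0.15 to 1.47, adjusted p = 0.139, and 0.114 with voom). Few reads lie behind it, 7, 3 and 19 in DCRT-KO and 18, 8 and 9 in WT.

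TNFRSF10B (ENSG00000120889, chromosome 8, 23020133 to 23069031, minus strand) encodes DR5, a cell surface receptor for the death ligand TRAIL. It had 49.1, 49.7 and 71.3 FPKM in DCRT-KO and 65.6, 58.7 and 58.5 in WT. DCRT-KO libraries 1 and 2 were the lowest of all 6 and library 3 the highest. Its log2 difference of -0.12 ± 0.18 SE had the narrowest interval among the 8 members (-0.53 to 0.29, adjusted p = 0.717). TP53I3 (ENSG00000115129, chromosome 2, 24077433 to 24085861, minus strand), a quinone oxidoreductase linked to the making of reactive oxygen species, had 2.46, 0 and 0.94 FPKM in DCRT-KO and 1.34, 2.64 and 1.47 in WT. It rests on 3, 0 and 3 reads in DCRT-KO and 8, 11 and 7 in WT, and its 95% interval ran from -1.59 to 0.49 (log2 difference -0.55 ± 0.46 SE, adjusted p = 0.493). The difference was -0.99 without DCRT-KO library 1, -0.09 without DCRT-KO library 2, -0.35 without WT library b and -1.51 with a pseudocount of 0.1.

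SESN1 (ENSG00000080546, chromosome 6, 108986437 to 109094819, minus strand) encodes sestrin 1, which restrains the growth regulator mTORC1 and takes part in antioxidant defence. It had no read in DCRT-KO libraries 1 and 2 and 0.849 FPKM in library 3, against 0.905, 1.85 and 2.75 FPKM in WT. The groups did not overlap, as was so in the lower direction for 14.8% of tested genes, though DCRT-KO library 3 and WT library a differed by little. Because SESN1 passed the filter only through its WT values, its lower side was partly set by the filter and is a description only. The log2 difference was -1.15 ± 0.41 SE (95% interval -2.07 to -0.23, adjusted p = 0.13), and over the alternatives it ran from -3.07 (pseudocount 0.1, adjusted p = 0.192) to -0.56 (without both DCRT-KO libraries 1 and 2, adjusted p = 0.506). It passed only without DCRT-KO library 3 (-1.45, adjusted p = 0.0493), in a fit that called 13.7% of 11420 tested genes, with 7.32% lower. SESN1 had no read left in DCRT-KO in that fit and entered it only through its WT values. It was at -1.005 without library 1 or library 2 (adjusted p = 0.204 and 0.240) and below the filter without WT library b or c. The secreted stress cytokine GDF15 (ENSG00000130513, chromosome 19, 18374731 to 18389176, plus strand) had 0, 0 and 2.43 FPKM in DCRT-KO and 0.37, 0.533 and 0.232 in WT, from 7 reads in DCRT-KO library 3 and 5 in the 3 WT libraries together.

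Depth limits what the low members can show. Each DCRT-KO library was set against the reads it would hold if a gene kept the share of reads it had in the 3 WT libraries together. For BAX this gave 36.7, 25.9 and 95.9 reads in libraries 1, 2 and 3, where 7, 9 and 102 were observed. The exact 95% Poisson intervals of the observed reads were 2.81 to 14.4, 4.12 to 17.1 and 83.2 to 124, so libraries 1 and 2 were below the WT rate beyond counting error and library 3 was not. For SESN1, 4.75, 3.36 and 12.4 reads would be held and 0, 0 and 6 were observed. By the floor used here a count of 0 allows up to 3 reads, which for SESN1 is 1.11 FPKM in library 1 and 1.57 in library 2. Both are above the level of WT library a, so a count of 0 does not exclude a level like that one. On the exact Poisson interval, the upper limit of a count of 0 was 3.69 reads, below the WT rate in library 1 and above it in library 2. In library 3 the interval of 2.20 to 13.1 reads took in the WT rate.

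For CDKN1A, library 3 lay above the WT rate, with 522 reads (interval 478 to 569) against 332 at the WT rate. Libraries 1 and 2 held 136 and 89 reads, against 127 and 89.8. For TNFRSF10B, library 1 lay under the WT rate (130 reads, interval 109 to 154, against 163). Library 2 lay only just under it (93 reads, interval 75.1 to 113.9, against 114.9). Library 3 lay above it (493 reads, interval 450 to 539, against 425). For BBC3, library 3 held 19 reads (interval 11.4 to 29.7) against 7.49, while the intervals of libraries 1 and 2 took in 2.87 and 2.03. MDM2, ZMAT3 and TP53I3 kept within counting error of the WT rate in all 3 libraries. For GDF15, library 3 held 7 reads (interval 2.81 to 14.4) against 1.07 at a WT rate that rests on 5 reads. Libraries 1 and 2 held 0 GDF15 reads, against 0.410 and 0.289. The intervals hold counting error alone, and not that of the WT rate: without molecular identifiers, reads need not be independent molecules. Libraries of the same group differed by more than counting error (chi-square 3.09 to 6.42 for each degree of freedom). The intervals are therefore too narrow for the spread between replicates.

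**Figure D2:**
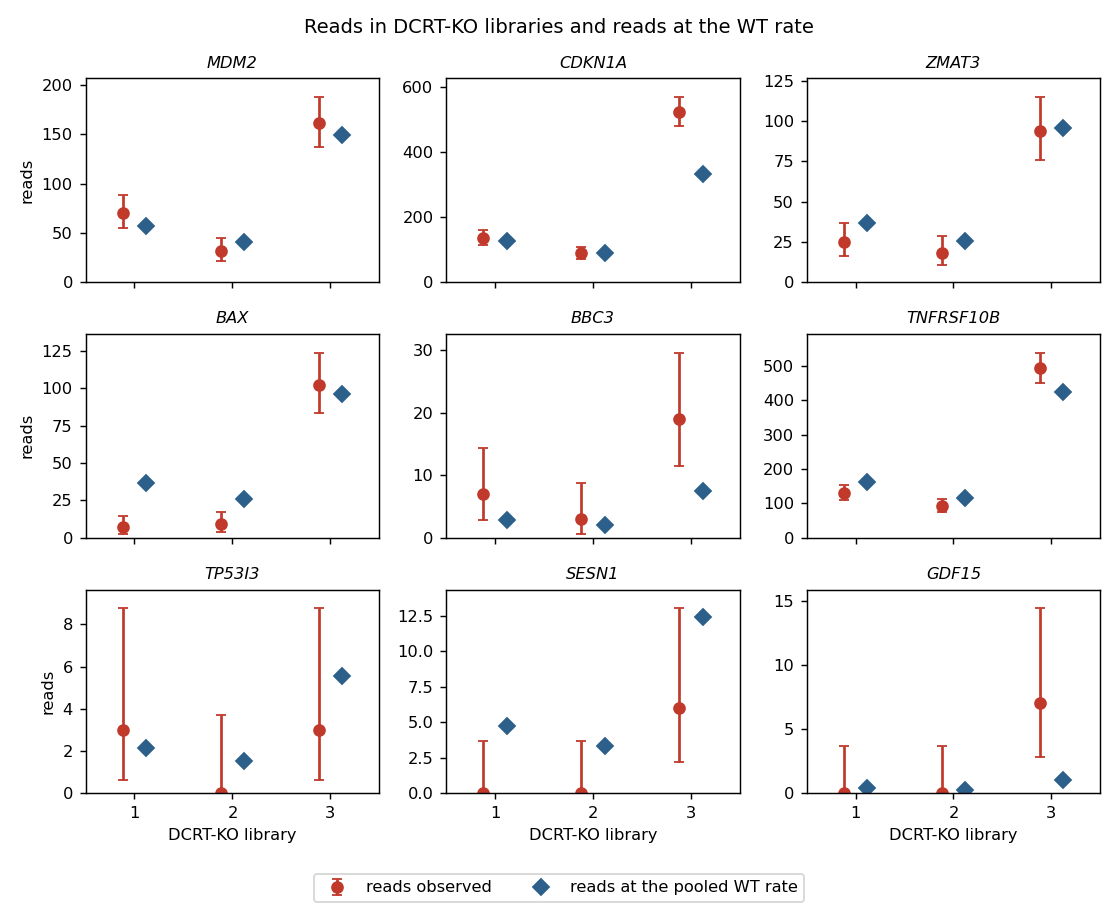
Reads of each gene in DCRT-KO libraries 1 to 3 (red, with exact 95% Poisson intervals) and the reads those libraries would hold at the pooled WT rate (blue diamonds), on linear axes that start at 0. BAX has 7 and 9 reads in libraries 1 and 2, against 36.7 and 25.9 at the WT rate, and 102 against 95.9 in library 3.

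DCRT-KO library 3 was the highest of its group for 7 of the 9 members, library 1 for 2 and library 2 for 0, while library 3 was highest for 40.3% of tested genes. The BAX pattern, with libraries 1 and 2 below every WT value and library 3 inside the WT range, was shared by 7.73% of tested genes. With libraries 1 and 2 below 50% of the lowest WT value it was shared by 0.813%. Both forms of the pattern were drawn from the BAX values, so BAX meets them by construction and the shares are a description only. Library 3 is also the deepest of its group. Whether depth or another difference between these libraries goes with the BAX values was not tested.

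Position, base composition and transcript length were set beside the 3 members with the largest differences. BAX and BBC3 lie near each other on chromosome 19, where most neighbours were higher. Of 151 tested genes within 5 Mb of BAX, 96 were higher and 55 lower, with a median log2 difference of 0.16, and 4 were at or below BAX. The ferritin light chain FTL, 7.79 kb from BAX between gene centres, averaged 1806 ± 125 FPKM in DCRT-KO and 1801 ± 105 in WT (log2 difference 0.00 ± 0.21 SE, adjusted p = 0.994). Next on that side was GYS1, with a log2 difference of 0.41 (adjusted p = 0.295). On the other side the nearest tested genes were NUCB1 at 0.19 and PPP1R15A at -0.92 (adjusted p = 0.748 and 0.145). Around BBC3, 102 of 161 neighbours were higher, also with a median of 0.16, and 143 were at or below BBC3. BAX and BBC3 lie 1.73 Mb apart and each is a neighbour of the other. Their windows share most genes, so the medians are not independent. Around SESN1 on chromosome 6, 19 of 40 neighbours were higher, with a median of -0.06. SESN1 itself is not ranked among them, because it passed the filter only through its WT values.

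**Figure D3:**
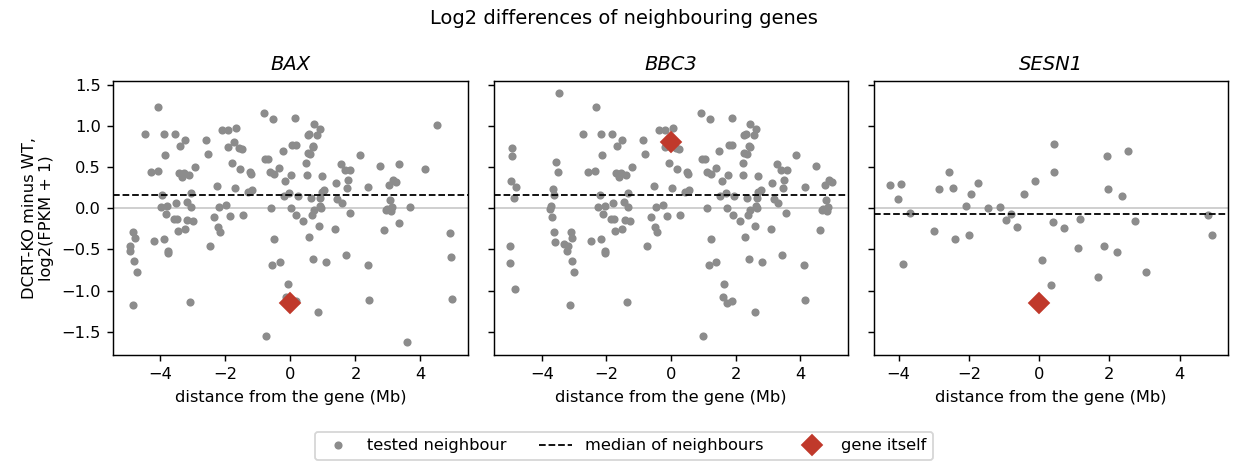
Log2 difference (DCRT-KO minus WT, log2(FPKM + 1)) of tested genes within 5 Mb of BAX, BBC3 and SESN1 against their distance in Mb, with the gene itself as a red diamond and the neighbours' median as a dashed line. BAX lies near the lower edge of its neighbours and BBC3 among the higher ones; SESN1 is drawn but not ranked, since it passed the filter only through WT.

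Among the G and C content deciles that hold members, those of higher content had higher median differences. Tested genes of the same decile of G and C content as BBC3 (62.0% to 74.7%) had a median log2 difference of 0.35, and 79.97% of them were below BBC3's 0.81. The decile that holds BAX (58.5% to 62.0%) had a median of 0.24, with 0.701% of its genes below BAX. The decile of SESN1 and MDM2 (41.2% to 43.5%) had a median of -0.20. By transcript length, the decile that holds BAX (180 to 1355 bases) had a median of 0.17, with 5.24% of its genes below BAX. The length decile of BBC3 (1356 to 1851 bases) had a median of 0.05, with 91.0% of its genes below BBC3. The length decile of SESN1 (3238 to 3841 bases) had a median of -0.04. The part of base composition or transcript length in these differences was not tested.

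The wider p53 response gave the same count of calls. A total of 62 target genes, the 9 members among them, were listed by role, and of the 51 tested none rose and none fell with limma. At an unadjusted limma p below 0.05 there were 11, where 23.6% of all tested genes passed, and voom called 1 target higher, where it called 9.24% of all tested genes. Values lay above WT in 24 and below in 27, with a median log2 difference of -0.01. The groups did not overlap in 6 higher and 9 lower genes, against 30.3% of all tested genes. These counts and the median include genes that passed the filter through 1 group alone, SESN1 among them.

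By role, the 11 tested arrest genes had a median of 0.06. After CDKN1A the most abundant was E2F7, a repressor of cell cycle genes, with 64.7, 47.7 and 52.4 FPKM in DCRT-KO and 77.1, 78.6 and 68.6 in WT, without overlap (log2 difference -0.45 ± 0.17 SE, adjusted p = 0.147). The 14 tested cell death genes had a median of -0.07. AEN, an apoptosis-enhancing nuclease, averaged 32.0 ± 6.12 FPKM in DCRT-KO and 31.7 ± 1.62 in WT. PMAIP1, which encodes the BH3-only protein NOXA, was picked with its values in view. It lay above WT like BBC3, with 7.62, 4.79 and 8.43 FPKM in DCRT-KO and 4.32, 2.49 and 2.39 in WT (log2 difference 0.97 ± 0.29 SE, adjusted p = 0.0903). Other BH3-only genes were mixed. BID, also picked with its values in view, lay above WT without overlap (log2 difference 1.11 ± 0.34 SE, adjusted p = 0.0959). BCL2L11 had a log2 difference of 0.02 and BAD of -0.63 (adjusted p = 0.968 and 0.394). BIK, below the filter, had no read in DCRT-KO and 6, 2 and 2 reads in WT.

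The 9 tested genes of metabolism and antioxidant defence, SESN1 among them, had a median of -0.22. ISCU, the scaffold for iron-sulphur clusters, averaged 6.60 ± 3.18 FPKM in DCRT-KO and 7.66 ± 3.05 in WT, and PRKAB1, a subunit of the energy sensor AMPK, 5.80 ± 2.19 and 6.19 ± 1.30. The related sestrin SESN2, picked with its values in view, had 2.73, 4.64 and 2.93 FPKM in DCRT-KO and 6.36, 9.15 and 7.84 in WT, without overlap (log2 difference -0.999 ± 0.26 SE, adjusted p = 0.0618). It rests on 5, 6 and 14 reads in DCRT-KO and 57, 57 and 56 in WT.

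The 5 DNA repair genes had a median of 0.04. XPC, which recognises bulky DNA damage, averaged 8.22 ± 0.997 FPKM in DCRT-KO and 7.93 ± 0.734 in WT, and REV3L, the catalytic subunit of a translesion polymerase, 8.62 ± 3.31 and 7.35 ± 1.17. RRM2B, the p53-induced subunit of ribonucleotide reductase, was likewise picked with its values in view. It had 1.02, 0.966 and 2.35 FPKM in DCRT-KO and 3.97, 4.51 and 4.37 in WT (log2 difference -1.15 ± 0.30 SE, adjusted p = 0.0628). The 11 tested secreted, surface and other proteins had a median of -0.19. The receptor kinase EPHA2 averaged 44.5 ± 6.27 FPKM in DCRT-KO and 37.6 ± 4.32 in WT, and SUSD6 10.5 ± 3.01 and 11.8 ± 1.44. PLXNB2, a semaphorin receptor also outside the naming rule, was the gene called with voom, at 9.75 ± 1.38 FPKM in DCRT-KO and 4.26 ± 2.14 in WT (voom adjusted p = 0.0111, limma adjusted p = 0.0708).

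**Figure D4:**
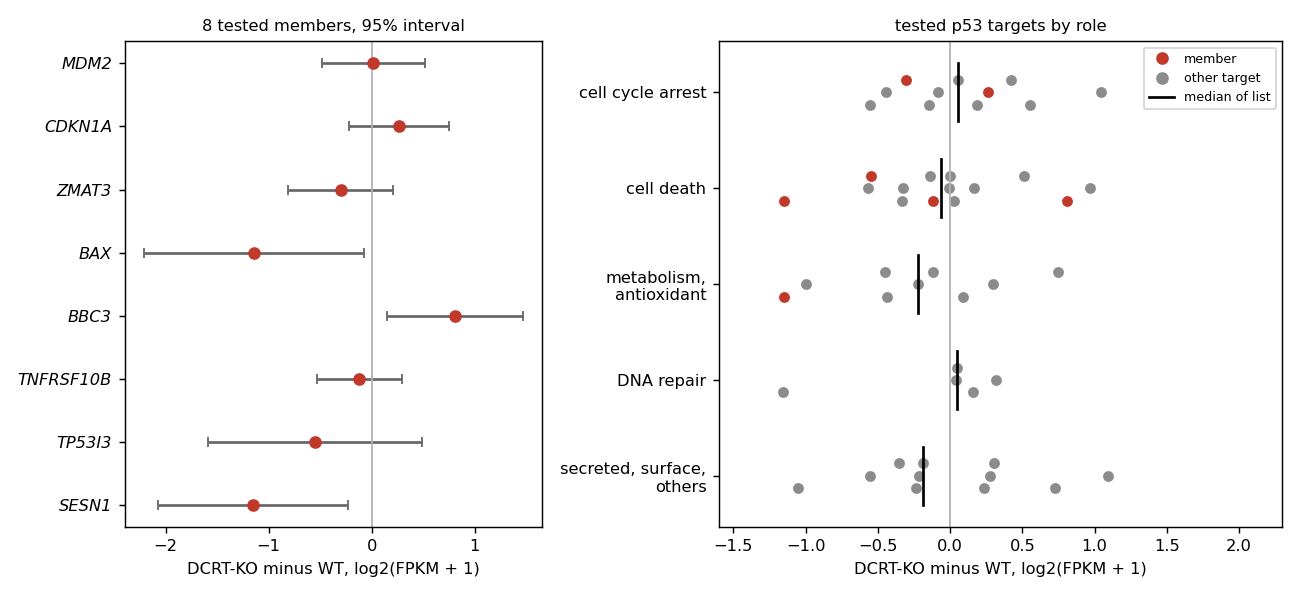
Left, log2 difference (DCRT-KO minus WT, log2(FPKM + 1)) of the 8 tested members with 95% intervals from limma. SESN1 is drawn among them, though it passed the filter only through its WT values. Right, the same difference for tested p53 targets grouped by role, members in red, other targets in grey and each list's median as a black line; the medians lie between -0.22 and 0.06, and genes spread to both sides of 0.

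Upstream and downstream genes were read from the same fit. Of 19 tested regulators of p53, none passed with limma, 8 did at an unadjusted p below 0.05 (23.6% of all tested genes) and voom called 1 lower (9.24% of all tested genes in either direction), the DNA damage kinase ATM. ATM, named for that call, had 23.0, 19.6 and 21.6 FPKM in DCRT-KO and 30.5, 31.0 and 28.3 in WT (limma adjusted p = 0.114, voom adjusted p = 0.0425). HIPK2, a kinase that phosphorylates p53, had 52.0, 41.0 and 35.2 FPKM in DCRT-KO and 52.7, 62.8 and 61.6 in WT (adjusted p = 0.159). The MDM2 relative MDM4, picked with its values in view, averaged 16.5 ± 2.82 FPKM in DCRT-KO and 16.8 ± 0.868 in WT and, like MDM2, did not pass (adjusted p = 0.91). CDKN2A, which encodes the MDM2 inhibitor ARF, had no read in any library.

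Of 14 cell cycle genes that p21 represses through the DREAM complex, MYBL2 rose with limma and none fell (3.55% of all tested genes in either direction). At an unadjusted limma p below 0.05 there were 4, where 23.6% of all tested genes passed. Voom called 1 higher and 1 lower (KIF23), where it called 9.24% of all tested genes. MYBL2, a transcription factor of proliferating cells, averaged 153 ± 21.9 FPKM in DCRT-KO and 83.6 ± 2.92 in WT (log2 difference 0.86 ± 0.16 SE, limma adjusted p = 0.0285, voom adjusted p = 0.00221), and the list had a median of -0.23. None of 14 tested genes of the mitochondrial apoptosis machinery passed, with a median of -0.24. An unadjusted limma p below 0.05 was reached by 2 of them (23.6% of all tested genes), and voom called 0 (9.24% of all tested genes). MCL1, a survival protein that BBC3 and PMAIP1 products bind, averaged 364 ± 42.7 FPKM in DCRT-KO and 401 ± 22.2 in WT. APAF1, the scaffold of the apoptosome and also a p53 target, had 19.1, 22.0 and 22.3 FPKM in DCRT-KO and 25.1, 27.2 and 28.0 in WT (adjusted p = 0.247). BAK1, the partner of BAX in pore formation, was chosen for a pattern that resembles that of BAX, low in DCRT-KO libraries 1 and 2 and inside the WT range in library 3. It had 5.99, 12.1 and 21.9 FPKM in DCRT-KO libraries 1, 2 and 3 against 21.8, 24.4 and 17.3 in WT (log2 difference -0.78 ± 0.37 SE, adjusted p = 0.243).

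Of 6 tested genes of the death receptor machinery, none passed with limma. An unadjusted limma p below 0.05 was reached by 1 (23.6% of all tested genes), and voom called 1 higher (9.24% of all tested genes in either direction). TNFRSF1A, a receptor for tumour necrosis factor, averaged 50.02 ± 15.6 FPKM in DCRT-KO and 48.5 ± 5.88 in WT, and the adaptor FADD 15.2 ± 3.44 and 10.5 ± 1.32. CFLAR, an inhibitor of caspase 8, was the gene, outside the naming rule, called with voom (6.42 ± 0.794 FPKM in DCRT-KO and 3.96 ± 0.541 in WT, voom adjusted p = 0.0177, limma adjusted p = 0.158). TNFSF10, which encodes the TNFRSF10B ligand TRAIL, had no read in any library.

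The genes whose values across the 6 libraries were most like those of MDM2 were RBM38, IRX2 and KIF3C, and those most like CDKN1A were NOD1, AP4B1 and RRP9. Pearson's r on log2(FPKM + 1) was 0.98 for each of these 6, out of 7098 genes of at least 5 FPKM compared, and 12 and 13 genes exceeded 0.95 for MDM2 and CDKN1A. All these values come from the same 6 libraries and share their depth, and the likeness is given as a description only. Markers of other cell types ranged widely in level. The epithelial keratin KRT18 rose (143 ± 60.2 FPKM in DCRT-KO, 48.7 ± 2.27 in WT, limma adjusted p = 0.0353), and epithelial markers summed to 93.8 to 227 FPKM in DCRT-KO and 58.5 to 67.0 in WT, from 5 genes of which CDH1 and KRT19 were at 0 in all libraries. Fibroblast markers summed to 106 to 140 FPKM in DCRT-KO and 98.8 to 118 in WT, with the collagen gene COL1A2 at 0. Most of that sum was VIM, at 94.1 ± 15.8 FPKM in DCRT-KO and 78.3 ± 7.01 in WT. The other tested fibroblast markers did not pass with limma but did with voom, FN1 higher (20.04 ± 5.38 FPKM in DCRT-KO and 11.2 ± 1.23 in WT, voom adjusted p = 0.00883) and PDGFRA lower (9.90 ± 1.56 and 18.0 ± 1.77, voom adjusted p = 0.0121). Of the 2 tested cardiomyocyte markers, neither passed with limma, and voom called TTN lower (voom adjusted p = 0.0230, limma adjusted p = 0.213). GATA4 did not pass with voom (voom adjusted p = 0.349), which called 9.24% of all tested genes. Endothelial and blood markers summed to at most 4.84 FPKM in any library. Their part in the p53 target values was not tested.

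No input or control-antibody library was analysed here, so transcript level, PTBP1 binding and carried-over RNA cannot be told apart, and neither can fewer cells and less RNA per cell. Per the labels' protocols the library kits kept strand, but whether strand was used in counting is not given in the sources used here. In GENCODE 29, MDM2 overlaps CPM (mean 0.774 FPKM) on the opposite strand, TNFRSF10B overlaps RHOBTB2 (3.95 FPKM) and TP53I3 overlaps FAM228B (0.234 FPKM), while no gene overlaps BAX or ZMAT3.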

How the data were processed

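The authors deposited 1 table of FPKM values for 20024 genes, with 6 library columns. Cutadapt 1.2.1 was among the tools, per the submitters' processing notes; nothing on aligner, counter or build is given in the sources used here. Gene positions are the file's own; 6 of the 9 members have the same start and end in GENCODE 29 (GRCh38). FPKM fixes each library's scale, so a rise in some genes lowers others.

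DCRT-KO columns carry their sample's name. Because a header occurs again among the WT columns, those were assigned to WT without a replicate number; 0 library columns were unused. Multiplied by gene length, 100% of the values were whole multiples of the column's smallest unit (tolerance 1e-06), which gave whole reads. Replicates of a group differed by more than sampling noise (chi-square 3.09 to 6.42 for each degree of freedom), and all 6 libraries were kept.

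The test was two-sided limma 3.58.1 (R 4.3.3), with a mean-variance trend, for genes averaging 1 FPKM or more, on the log2(FPKM + 1) scale. P-values were Benjamini-Hochberg adjusted over all tested genes, with a threshold of 0.05. This scale understates changes of low genes. Intervals are 95%, and the floor for a count of 0 is 3 reads. The fit was tested on simulated data. Sequences come from GENCODE 29 transcripts. Python 3.11.15, NumPy 2.4.6, pandas 2.3.3, SciPy 1.17.1 and matplotlib 3.10.9 were used.

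The members and lists were chosen with earlier results of these data known. Named genes are the 9 members, and from each list the genes past the threshold (at most 4 per direction) or else the 2 with the highest mean; others are marked where they appear. From 1 list, a gene that this rule takes is not reported here. Likeness to MDM2 and CDKN1A took the 3 highest correlations. Alternatives were another pseudocount, filters, scalings, variance models, voom on whole reads, and libraries left out.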

Additional observations from a re-analysis of the deposited data

How the results depend on the processing

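Under the alternatives, 114 recomputed values of members kept their direction and their side of the threshold, 6 changed sign and 2 newly passed. MDM2 changed sign around 0, to -0.12 after rescaling without mitochondrially encoded genes (where the median of all tested genes moved to -0.17), -0.11 without DCRT-KO library 1, -0.02 without DCRT-KO library 3 and -0.08 without WT library a, against 0.17 without DCRT-KO library 2. Without both shallowest DCRT-KO libraries, BAX was at 0.12 and TNFRSF10B at 0.22, in a fit where the lone DCRT-KO library is assumed to vary like the WT libraries. BAX and SESN1 passed without DCRT-KO library 3, in a fit that called 13.7% of 11420 tested genes. SESN1 entered that fit only through its WT values. BBC3 ran from 0.70 to 1.25 (adjusted p 0.0878 to 0.368), and CDKN1A from 0.06 to 0.67. The number of members called was 0 to 2 over the fits that leave out 1 library, and 0 under the other alternatives. Genes called higher over all genes numbered 72 with no filter, 70 without a variance trend, 669 with voom, 31 without both shallowest DCRT-KO libraries and 0 to 724 with 1 library left out (135, 42 and 724 without DCRT-KO libraries 1, 2 and 3, and 4, 8 and 0 without WT libraries a, b and c). Genes called lower numbered 90 with a pseudocount of 0.1, 50 with no filter, 232 with quantile normalization, 328 without mitochondrially encoded genes, 64 without a variance trend, 389 with voom, 13 without both shallowest libraries and 0 to 836 with 1 library left out (70, 23 and 836 without DCRT-KO libraries 1, 2 and 3, and 0 without any 1 WT library). The causes were not tested. BBC3, TP53I3 and SESN1 fell below the 5 FPKM filter, and SESN1 below the filter in 3 other alternatives, so these gave no value. No paired analysis was possible because a number occurs again among the WT headers and none of them is numbered 3. The planned count tests of edgeR and DESeq2 were not run; voom was the test run on the whole reads. Depth limits SESN1, TP53I3, BBC3 and GDF15 most.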
